A study of Mus musculus with 8 samples.

Results

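The genes described here encode the synaptonemal complex, the chromosome axis it is built on, and the cohesin subunits made for meiosis: Sycp1, Sycp2, Sycp3, Syce1, Syce2, Hormad1, Hormad2, Smc1b, Stag3 and Rec8. They were taken by name: every probe set annotated to exactly 1 gene symbol, where that symbol is one of these names, was included. All 10 genes were found, on 11 of the 35557 probe sets of the array and among 19938 genes with a probe set of their own. Hormad1 has a pair of probe sets and the other genes have 1 each.

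In meiotic prophase each chromosome folds into loops along a protein axis, and the axes of paired homologues are then zipped together by the synaptonemal complex. SYCP2 and SYCP3 form the axial (later lateral) elements, the HORMAD proteins mark axes that have not yet paired, SYCP1 forms the transverse filaments that bridge the axes, and SYCE1 and SYCE2 belong to the central element. The axes rest on cohesin rings in which SMC1B, STAG3 and the kleisin REC8 take the place of subunits used in dividing somatic cells. In the testis these genes are switched on as spermatocytes enter meiosis, and loss of most of them stops spermatocytes in prophase.

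RNA was taken from whole testes of male littermates of 2 to 3 months: 3 Ing2+/+ mice and 5 Ing2-/- mice, 1 array per mouse, with no treatment. The labels do not tie a mouse to its litter, and litter was not modelled. Ing2 encodes a PHD-finger protein of the Sin3-HDAC chromatin complex. The gene had been targeted in embryonic stem cells; EIIa-Cre removed its loxP-flanked exon 2 through the germline, the Cre transgene was bred out over C57BL/6J, and so the somatic cells of the Ing2-/- testis carried the deletion as well as the germ cells. The question for the 10 genes was whether their transcripts differed between the genotypes. In whole tissue, fewer cells of a type and less RNA per cell cannot be told apart.

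The targeted gene checked the labels. Ing2 levels were 7.34 to 7.60 in the Ing2+/+ arrays and 5.06 to 5.64 in the Ing2-/- arrays, on the log2 scale used for all levels below, a difference of -2.16 ± 0.13 (SE; limma adjusted p = 3.95e-04; exact permutation p = 0.0179, the smallest that 56 splits allow). Arrays of Ing2+/+ testes correlated at 0.995 to 0.996 over all probe sets, and 4 Ing2-/- arrays at 0.993 to 0.994. The array of Ing2-/- replicate 3 stood apart, at 0.981 to 0.989 with the others of its genotype. Cell type markers moved with it: the mean level of 10 pachytene spermatocyte markers was -0.72 relative to the Ing2+/+ arrays, against a mean of -0.25 in the other Ing2-/- arrays, that of 9 Sertoli cell markers was 1.18 against 0.44, and that of 5 Leydig cell markers was 1.18 against 0.61. Values without it are given beside many of the results it moves, though not beside all of them.

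The promoters of the genes are of interest because STRA8, E2F6 and the germ cell MYB protein (Mybl1) are known regulators of the meiotic programme. RefSeq windows on GRCm38.p6, from 250 bases before to 50 after each annotated start, were found for all 10 genes, 12 windows in all since Hormad1 and Syce2 have more than 1 start. The windows of Rec8, the gene with the largest difference between genotypes, and of the 3 genes with a match to the STRA8 motif are printed 5′ to 3′ on the strand of the gene, with the letters of any match in capitals. They lie at chr14:55617916-55618215 on the + strand for Rec8, at chr3:102936051-102936350 on the - strand for Sycp1, at chr11:4441033-4441332 on the - strand for Hormad2, and at chr8:84872008-84872307 on the + strand for Syce2 (its second start).
Rec8: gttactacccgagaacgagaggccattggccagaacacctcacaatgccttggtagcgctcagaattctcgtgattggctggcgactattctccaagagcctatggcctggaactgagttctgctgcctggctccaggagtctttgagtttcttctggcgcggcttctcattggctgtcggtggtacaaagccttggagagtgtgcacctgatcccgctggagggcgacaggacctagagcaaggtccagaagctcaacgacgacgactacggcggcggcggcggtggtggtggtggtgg
Sycp1: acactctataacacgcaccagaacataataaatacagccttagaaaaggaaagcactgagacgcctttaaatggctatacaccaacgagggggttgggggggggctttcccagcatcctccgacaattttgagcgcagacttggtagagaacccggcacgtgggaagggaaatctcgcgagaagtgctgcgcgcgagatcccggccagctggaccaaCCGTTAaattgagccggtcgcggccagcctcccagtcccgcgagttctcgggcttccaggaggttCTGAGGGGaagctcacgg
Hormad2: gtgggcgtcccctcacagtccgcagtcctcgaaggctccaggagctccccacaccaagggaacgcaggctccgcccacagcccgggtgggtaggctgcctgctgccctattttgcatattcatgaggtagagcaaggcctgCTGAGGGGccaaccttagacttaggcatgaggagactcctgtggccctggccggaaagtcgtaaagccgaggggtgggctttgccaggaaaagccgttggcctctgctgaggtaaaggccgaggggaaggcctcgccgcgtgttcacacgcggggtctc
Syce2: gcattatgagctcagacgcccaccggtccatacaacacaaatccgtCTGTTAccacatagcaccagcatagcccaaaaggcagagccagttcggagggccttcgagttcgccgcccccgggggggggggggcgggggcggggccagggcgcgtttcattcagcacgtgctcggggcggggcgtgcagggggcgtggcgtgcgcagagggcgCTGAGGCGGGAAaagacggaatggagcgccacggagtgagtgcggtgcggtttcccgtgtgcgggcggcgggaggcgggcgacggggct

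On either strand, the STRA8 motif CNCCTCAG was matched in the windows of 3 of the 10 genes (Hormad2, Syce2 and Sycp1) and of 9.12% of 27025 genes. The E2F motif GGCGGGAA was matched in 2 of 10 (Hormad1 and Syce2) and in 2.52% of all genes. The MYB motif TAACNG was matched in 6 of 10 (Hormad1, Stag3, Syce1, Syce2, Sycp1 and Sycp2) and in 25.9%, and the cAMP response element TGACGTCA in 0 of 10 and in 2.03%. In the Syce2 window the STRA8 match (on the - strand) and the E2F match (on the + strand) overlap, which is the single long run of capitals towards its end, and the separate capitals towards its beginning are a MYB match. The STRA8 match lies at -109 from the start in Hormad2 and at 32 in Sycp1, where the other capitals are a MYB match at -33. The windows of Rec8, Sycp3 and Smc1b held none of the 4 motifs, and the median GC content was 60.3% over the 12 windows and 52.7% over all 32851. Of the genes with a STRA8 match, Hormad2 and Sycp1 had differences of -0.24 each (limma adjusted p = 0.222 and 0.324). Syce2 had a difference of 0.03 (adjusted p = 0.919), whose sign turned as single arrays were left out. A link between motif and difference was not tested.

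The transcripts of this machinery were all present in Ing2-/- testes, at levels close to those of Ing2+/+ testes for most of the 10 genes. None of the 10 passed the test (limma, adjusted p under 0.05; 0 also with the random variance model), while 4.98% of all genes did, 3.01% lower and 1.97% higher in Ing2-/- testes. At an unadjusted p under 0.05 there was 1, Rec8, against 30.0% of all genes. The levels of 3 genes (Rec8, Hormad2 and Syce1) were lower in every Ing2-/- array than in any Ing2+/+ array, as in 14.9% of all genes, and 0 were higher in every Ing2-/- array, as 16.7% of all genes were. Differences between genotypes, always Ing2-/- minus Ing2+/+, ran from -0.48 to 0.15 with a median of -0.10, beside 0.02 over all genes. On the deposited scale the 95% confidence interval lay within a 1.5-fold change either way for 9 of the 10 genes, all but Rec8. For Sycp1 its lower end, 66.7% of the Ing2+/+ level, sat at that limit.

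**Figure D1:**
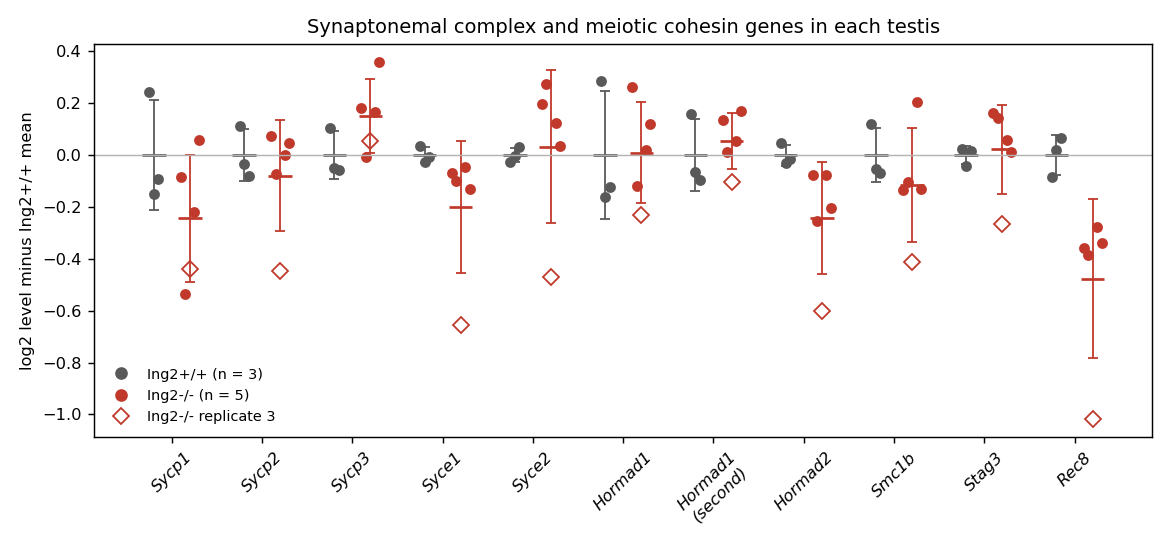
Level of each of the 10 genes in each array, as log2 RMA value minus the Ing2+/+ mean of the probe set (1 point per mouse, 3 Ing2+/+ in grey and 5 Ing2-/- in red, replicate 3 as an open diamond, lines at the group means with SD bars; Hormad1 has both its probe sets). The groups are separate for Rec8, Hormad2 and Syce1 and overlap for the other 7 genes, and replicate 3 is the lowest Ing2-/- array for 8 of the 10.

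All 11 probe sets lay above the background of the arrays, taken as the median of the unnamed probe sets (those with no symbol), which was 5.47 to 5.62. The member nearest to it was Hormad2, whose lowest value was 7.49. Every gene was tested with no filter on low values. Replicate 3 was below the mean of the other Ing2-/- arrays for all 10 genes, below every Ing2+/+ array for 9 of them, and the lowest Ing2-/- array for 8. The mean of the 10 genes relative to the Ing2+/+ mean was -0.45 in that array, -0.12 to 0.02 in the other Ing2-/- arrays and -0.05 to 0.09 in the Ing2+/+ arrays.

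Direction near 0 depended on the scale of the arrays. With each array shifted to an equal median of the Sertoli cell markers, the median over all genes moved to -0.65 and that of the 10 genes to -0.77, all 10 differences were below 0, and 6 genes passed the test, as did 68.9% of all genes. With an equal median of the pachytene spermatocyte markers, the median over all genes moved to 0.22 and that of the 10 genes to 0.11, with Rec8, Sycp1 and Hormad2 below 0 and 0 genes passing. The median of the 10 genes lay below the median of all genes on each scale, since a shift of a whole array leaves the gap between them as it is.

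**Figure D2:**
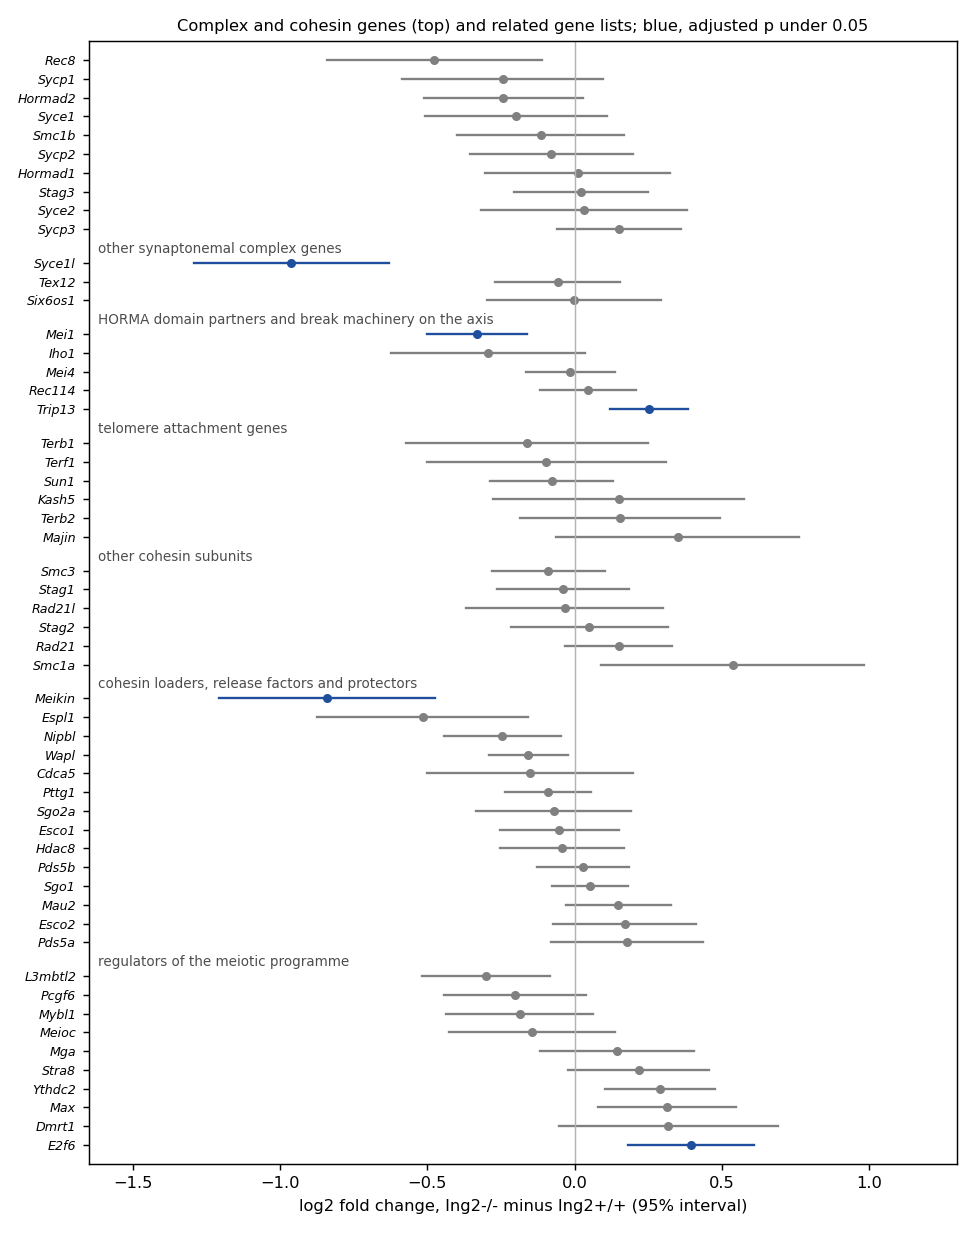
Difference in log2 level, Ing2-/- minus Ing2+/+ (n = 5 and 3 arrays), for the 10 genes and the measured genes of the related lists, with 95% confidence intervals from limma and genes that passed the test in blue. The intervals of the 10 genes cross 0 except that of Rec8 (-0.84 to -0.11), and the largest decreases among related genes are those of Syce1l (-0.96) and Meikin (-0.84).

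Among the axis genes, those of the axial elements overlapped between genotypes. Sycp3, whose product coats the axis and is the usual marker of spermatocyte chromosomes, was at 10.27, 10.11 and 10.10 in the Ing2+/+ arrays and at 10.34, 10.15, 10.22, 10.33 and 10.52 in the Ing2-/- arrays. It was the member with the largest difference above 0, at 0.15 ± 0.09 (SE; 95% confidence interval -0.06 to 0.36; limma adjusted p = 0.320), and the only one at which replicate 3 was not below every Ing2+/+ array. Sycp2, the partner of SYCP3 in the axial element, was at 10.33, 10.18 and 10.13 in Ing2+/+ and at 10.29, 10.14, 9.77, 10.22 and 10.26 in Ing2-/- testes. Apart from replicate 3 these Ing2-/- levels lay within the range of the Ing2+/+ levels. The difference was -0.08 ± 0.12 (SE; adjusted p = 0.719), and 0.01 without replicate 3.

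The HORMA domain genes, whose products bind unsynapsed axes and take part in checking that homologues have paired, differed from each other in their pattern. Hormad2 was at 8.14, 8.06 and 8.08 in Ing2+/+ testes and at 8.02, 7.84, 7.49, 8.02 and 7.89 in Ing2-/- testes. The groups did not overlap, but the gap between them was 0.05. The difference was -0.24 ± 0.12 (SE; 95% confidence interval -0.51 to 0.03; adjusted p = 0.222), an Ing2-/- level of 84.6% of the Ing2+/+ level, and it was -0.15 without replicate 3 (adjusted p = 0.176).

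Hormad1 was measured by a pair of probe sets, and which stretch of the gene each reads, or whether the brighter also reads a copy, was not settled here. On the brighter, the levels were 10.10, 9.65 and 9.69 in Ing2+/+ testes and 10.08, 9.70, 9.59, 9.83 and 9.94 in Ing2-/- testes. The difference was 0.01 ± 0.14 (SE; adjusted p = 0.972) on that probe set and 0.05 ± 0.09 (adjusted p = 0.739) on the other. Both groups spanned nearly the same range. Leaving out single arrays moved the first value between -0.07 and 0.15.

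In the central region of the complex, Sycp1, which encodes the transverse filament that joins the homologues, was at 10.35, 9.96 and 10.02 in Ing2+/+ testes and at 10.03, 9.58, 9.67, 9.89 and 10.17 in Ing2-/- testes. Ing2-/- replicates 2, 3 and 4 lay below all Ing2+/+ arrays, and replicates 1 and 5 lay among them. The difference was -0.24 ± 0.15 (SE; 95% confidence interval -0.58 to 0.10; adjusted p = 0.324), and it moved between -0.32 and -0.12 as single arrays were left out. The value nearest to 0 came without Ing2+/+ replicate 1, the highest array of all for this gene.

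The central element genes were Syce1 and Syce2. Syce1 was at 10.92, 10.86 and 10.88 in Ing2+/+ testes and at 10.82, 10.79, 10.23, 10.84 and 10.76 in Ing2-/- testes. The groups were separate by a gap of 0.02, with replicate 3 far below the rest. The difference was -0.20 ± 0.14 (SE; adjusted p = 0.372), of which the arrays other than replicate 3 showed -0.09 (adjusted p = 0.338 without it). Syce2 was at 10.40, 10.42 and 10.45 in Ing2+/+ testes and at 10.62, 10.70, 9.95, 10.54 and 10.46 in Ing2-/- testes. Here 4 Ing2-/- arrays lay above every Ing2+/+ array and replicate 3 lay below every one. The difference was 0.03 ± 0.15 (SE; adjusted p = 0.919) over all arrays and 0.16 without replicate 3.

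Of the meiotic cohesin subunits, Rec8 had the largest difference of the 10 genes. REC8 is the kleisin that closes the cohesin ring in meiosis and whose cleavage lets homologues and then sister chromatids separate. Its level was 8.78, 8.88 and 8.93 in Ing2+/+ testes and 8.51, 8.48, 7.85, 8.59 and 8.53 in Ing2-/- testes. The groups were separate by a gap of 0.19, the widest of the 10 genes. The mean was 8.86 ± 0.08 (SD, n = 3) against 8.39 ± 0.31 (SD, n = 5), a difference of -0.48 ± 0.16 (SE; 95% confidence interval -0.84 to -0.11; unadjusted p = 0.0163, limma adjusted p = 0.104), or an Ing2-/- level of 71.9% of the Ing2+/+ level (interval 55.8% to 92.6%). Replicate 3 was at -1.02 relative to the Ing2+/+ mean and the mean of the other Ing2-/- arrays at -0.34. Without replicate 3 the difference of -0.34 passed the test (adjusted p = 0.0132), as it did with array weights (-0.37, adjusted p = 0.0208), settings in which 16.5% and 20.6% of all genes passed. With an equal median of the pachytene spermatocyte markers it was -0.27 (adjusted p = 0.149), and of the Sertoli cell markers -1.14 (adjusted p = 0.0255).

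Smc1b, the meiotic form of the SMC1 arm of the ring, was at 10.61, 10.44 and 10.42 in Ing2+/+ testes and at 10.36, 10.38, 10.08, 10.69 and 10.36 in Ing2-/- testes. Its highest and its lowest level were both in Ing2-/- arrays, replicates 4 and 3. The difference was -0.12 ± 0.12 (SE; adjusted p = 0.592), and it was -0.04 without replicate 3. Stag3, the meiotic regulatory subunit, was at 11.14, 11.08 and 11.13 in Ing2+/+ testes and at 11.28, 11.26, 10.85, 11.17 and 11.13 in Ing2-/- testes. The groups overlapped, and the difference was 0.02 ± 0.10 (SE; 95% confidence interval -0.21 to 0.25; adjusted p = 0.915).

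Each meiotic cohesin subunit was also set against the general subunit that takes the same place in the ring, as a difference of log2 levels within each array. Since the probe sets differ, the change of such a difference between genotypes has meaning and its size does not. Rec8 minus Rad21, the kleisin of dividing cells, was -1.26, -1.14 and -1.07 in Ing2+/+ testes and -1.57, -1.60, -2.53, -1.55 and -1.67 in Ing2-/- testes. The groups were separate, with a change of -0.63 (exact permutation p = 0.0179, the smallest possible; adjusted over 4 pairs, 0.0714) and of -0.44 without replicate 3. Smc1b minus Smc1a was 3.02, 2.95 and 2.97 in Ing2+/+ testes and 2.51, 2.69, 1.41, 2.81 and 2.24 in Ing2-/- testes. The groups were again separate, with a change of -0.65 (exact permutation p = 0.0714; adjusted, 0.143) and of -0.42 without replicate 3. Neither passed the adjusted threshold, but with 56 splits and 4 pairs, 1 pair alone cannot go below 0.0714. Rec8 minus Rad21 was already at that value, so the adjusted threshold could not decide for it. Stag3 changed by 0.06 relative to Stag1 and by -0.03 relative to Stag2 (exact permutation p = 0.786 and 0.911; adjusted, 0.911 for both), with overlapping groups and a sign that depended on single arrays.

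**Figure D3:**
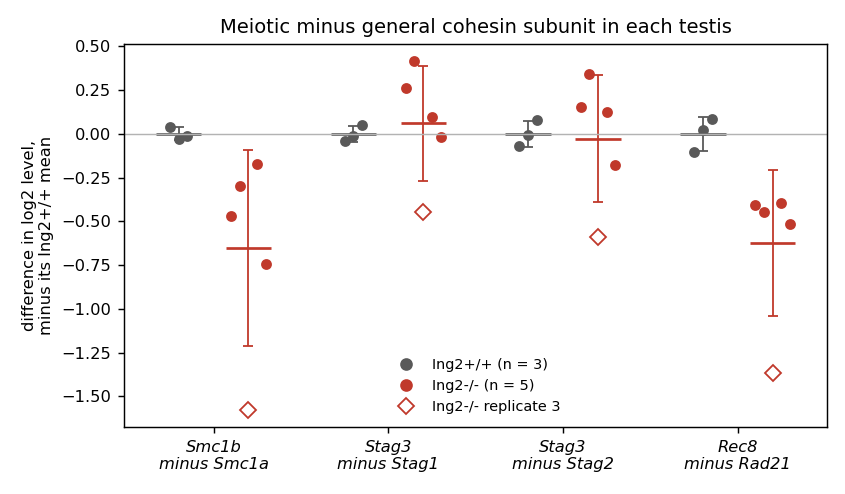
Level of a meiotic cohesin subunit minus that of its general counterpart in the same array, drawn relative to the Ing2+/+ mean of that difference (log2; 1 point per mouse, 3 Ing2+/+ in grey and 5 Ing2-/- in red, replicate 3 as an open diamond, lines at the means with SD bars). Rec8 minus Rad21 and Smc1b minus Smc1a are lower in every Ing2-/- array than in any Ing2+/+ array, and the Stag3 pairs overlap.

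Both terms enter such a change, and the levels of the general subunits follow. Smc1a was at 7.45 to 7.59 in Ing2+/+ testes and at 7.84, 7.70, 8.67, 7.88 and 8.12 in Ing2-/- testes, a difference of 0.54 ± 0.20 (SE; adjusted p = 0.123; 0.38 and adjusted p = 0.0388 without replicate 3). Rad21 was at 10.02 ± 0.02 (SD, n = 3) and at 10.17 ± 0.12 (SD, n = 5), a difference of 0.15 ± 0.08 (SE; adjusted p = 0.259). Both were higher in every Ing2-/- array than in any Ing2+/+ array on the deposited scale, as were 16.7% of all genes. Both were below the Ing2+/+ mean (-0.13 and -0.52) once arrays were set to an equal median of the Sertoli cell markers. The list of 6 other cohesin subunits had 0 genes passing the test (0 also with the random variance model), 1 (Smc1a) at an unadjusted p under 0.05 and a median difference of 0.01. One of its genes, the second germline kleisin Rad21l, lay at about the median of the unnamed probe sets.

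The other genes of the pathway were taken from 6 lists with 50 genes, of which 44 were measured and 5 passed the test, 3 lower and 2 higher in Ing2-/- testes (all genes, 4.98%, 3.01% and 1.97%). Among 3 other measured synaptonemal complex genes the 1 that passed was Syce1l, a paralogue of Syce1. It was at 9.11, 9.23 and 9.23 in Ing2+/+ testes and at 8.35, 8.31, 7.74, 8.36 and 8.38 in Ing2-/- testes. The groups lay far apart, with a difference of -0.96 ± 0.15 (SE; limma adjusted p = 0.0157), an Ing2-/- level of 51.3% of the Ing2+/+ level, and -0.84 without replicate 3. The central element genes Tex12 and Six6os1 of the same list had differences of -0.06 and -0.0017.

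Of 14 cohesin loaders, release factors and protectors 1 passed. Meikin, whose product guards centromeric REC8 in the first meiotic division, was at 8.46, 8.52 and 8.53 in Ing2+/+ testes and at 7.74, 7.80, 7.18, 8.004 and 7.58 in Ing2-/- testes. The difference was -0.84 ± 0.16 (SE; adjusted p = 0.0295), an Ing2-/- level of 55.8% of the Ing2+/+ level, and -0.72 without replicate 3. The list's median difference was -0.06. The gene for separase, which cleaves REC8 (Espl1), had a difference of -0.52 (adjusted p = 0.0855), and the cohesin loader Nipbl of -0.25 (adjusted p = 0.115). Of the 14 genes, 9 had differences below 0 and 5 above 0. Among those above 0 were Pds5a (0.18, adjusted p = 0.345) and Mau2 (0.15, adjusted p = 0.256).

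Of 5 HORMA domain partners and axis-bound break factors, 2 passed in opposite directions. Trip13, the ATPase that strips HORMAD proteins from synapsed axes, rose by 0.25 ± 0.06 (SE; adjusted p = 0.0473), from 8.51 to 8.59 in Ing2+/+ to 8.73 to 8.85 in Ing2-/- testes, and replicate 3 was in the middle of its group. Mei1, needed for meiotic DNA breaks, fell by 0.33 ± 0.07 (SE; adjusted p = 0.0453), from 7.53 to 7.71 to 7.24 to 7.44. The list's median difference was -0.01, and Mei4 and Rec114 lay near the median of the unnamed probe sets.

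Of 6 telomere attachment genes, which tether chromosome ends to the nuclear envelope during pairing, 0 passed (limma; 0 also at an unadjusted p under 0.05 and 0 with the random variance model), and the median was 0.04. Those with the smallest p were Majin, at 0.35 ± 0.18 (SE; adjusted p = 0.246; 0.50 and adjusted p = 0.00904 without replicate 3), and Terb2, at 0.15 ± 0.15 (adjusted p = 0.547). Of 10 regulators of the meiotic programme, E2f6, a repressor of meiotic genes in somatic cells, rose by 0.39 ± 0.09 (SE; adjusted p = 0.0499), from 6.45 to 6.51 to 6.73 to 7.12, and the list's median was 0.18. With the random variance model E2f6 did not pass (adjusted p = 0.0506). Stra8, which starts the meiotic programme, differed by 0.22 (adjusted p = 0.216), and Mybl1 by -0.19 (adjusted p = 0.302).

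These 5 calls depended on which arrays were included. Of the 44 genes, 0 passed when any 1 of the 3 Ing2+/+ arrays was left out. Without Ing2-/- replicate 1 or 5 there was 1, without replicate 2 or 4 there were 3, and without replicate 3 there were 9 calls. The calls over all genes moved with them: 40 to 149 of 19938 passed without 1 of the Ing2+/+ arrays and 3286 (16.5%) without Ing2-/- replicate 3. The differences of the 5 called genes kept their sign as single arrays were left out. They ran from -1.0013 to -0.840 for Syce1l, -0.926 to -0.719 for Meikin and -0.390 to -0.298 for Mei1. For Trip13 the range was 0.236 to 0.277, and for E2f6 it was 0.334 to 0.433. The increases of Trip13 and E2f6 turned to -0.42 and -0.27 with an equal median of the Sertoli cell markers. With an equal median of the pachytene spermatocyte markers, Mei1 was at -0.12 (limma adjusted p = 0.455). Trip13 and E2f6 did not pass on that scale either (adjusted p = 0.0950 and 0.0983), while Syce1l and Meikin did (0.0125 and 0.0333).

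The 10 genes did not vary across the 8 arrays as 1 unit. Over the 8 arrays, which differ in genotype and include replicate 3, Pearson's r of each gene with the mean of the other 9 was 0.97 for Sycp2, 0.94 for Syce1 and 0.92 for Hormad2, between 0.62 and 0.77 for Smc1b, Rec8, Stag3, Syce2, Hormad1 and Sycp1, and 0.16 for Sycp3. These values rested on replicate 3: over the other 7 arrays r was 0.82 for Sycp2, 0.72 for Sycp1, 0.69 for Hormad1, 0.59 for Hormad2, 0.48 for Syce1, 0.29 for Smc1b and 0.17 for Sycp3, and below 0 for Rec8 (-0.14), Stag3 (-0.26) and Syce2 (-0.64). The genes outside the set whose profile was most like the mean of the 10, each level taken relative to its mean over arrays, were Ccdc144b (r = 0.996), Rnf17 (0.989), 1700129C05Rik (0.989), Kif15 (0.989) and Ppp1r42 (0.985), over 8 arrays. Without replicate 3 the same genes had r = 0.980, 0.914, 0.914, 0.940 and 0.873. Their differences were -0.32 to -0.15 and none passed the test (adjusted p = 0.371 to 0.541), and in replicate 3 they lay between -1.06 and -0.57 relative to the Ing2+/+ mean.

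Markers of other cells and stages moved in the same arrays, and their part in these results was not tested. Of the 10 pachytene spermatocyte markers, all had differences below 0, with a median of -0.25. In 7 of them every Ing2-/- array was lower than any Ing2+/+ array (14.9% of all genes were). Of the 10, 1 passed (Hspa2, -0.40, adjusted p = 0.0476), while Ldhc was at -0.18 (adjusted p = 0.206). The medians of 7 round and 7 elongating spermatid markers were -0.33 (1 passing, Catsper1) and -0.17 (0 passing, 1 at an unadjusted p under 0.05), with Prm1 at -0.20 (adjusted p = 0.272). The median of the 8 spermatogonial markers was 0.06 with 0 passing and 3 at an unadjusted p under 0.05. The 9 Sertoli cell markers, Sox9 (0.48, adjusted p = 0.120) among them, were all higher in every Ing2-/- array than in any Ing2+/+ array (16.7% of all genes were), with a median of 0.55 and 0 passing, and all 9 at an unadjusted p under 0.05. The 5 Leydig cell markers had a median of 0.80 with 4 passing, and the 5 macrophage markers a median of 0.38 with 0 passing and 4 at an unadjusted p under 0.05. Over all genes, 4.98% passed and 30.0% were at an unadjusted p under 0.05, in either direction. The mean level of each list in the Ing2-/- arrays, relative to the Ing2+/+ mean, was -0.72 to -0.18 for pachytene spermatocytes, -0.92 to -0.14 for round and -0.47 to -0.05 for elongating spermatids, 0.08 to 0.39 for spermatogonia, 0.36 to 1.18 for Sertoli cells, 0.41 to 1.18 for Leydig cells and 0.16 to 0.65 for macrophages, and the end farthest from 0 was replicate 3 in each. In at least 1 array the markers Nanos2, Nanos3, Sohlh1, Lin28a, Fshr, Hsd3b1, Cd68, Adgre1 and Cd14 stood less than 1 above the median of the unnamed probe sets, while every spermatocyte and spermatid marker stood at least 2.79 above it in every array.

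**Figure D4:**
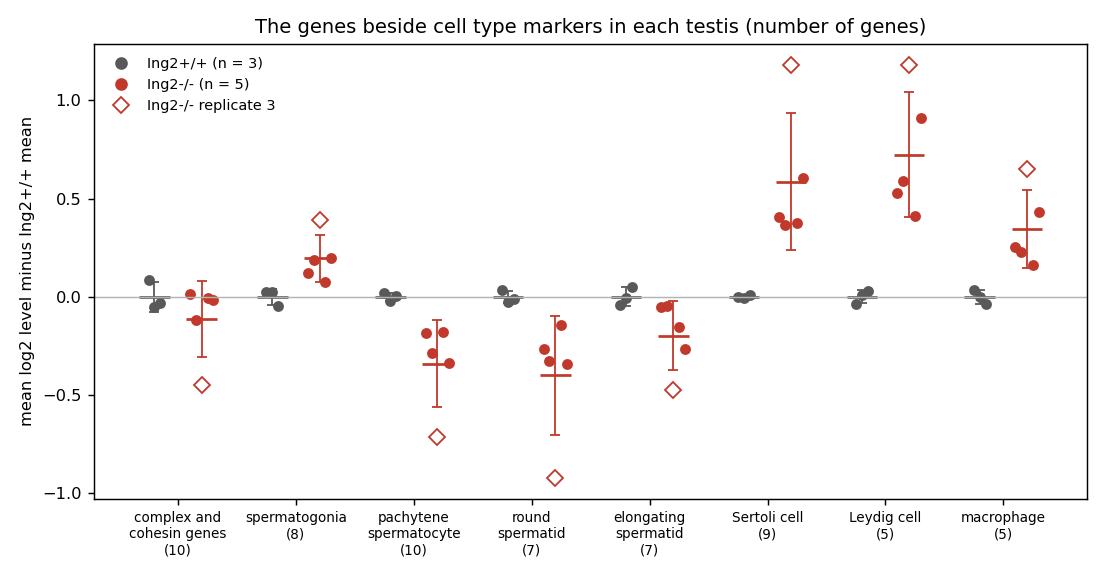
Mean level of each gene list in each array: log2 level relative to the mean of the 3 Ing2+/+ arrays, averaged over the genes of the list (1 point per mouse, Ing2+/+ in grey, Ing2-/- in red, replicate 3 as an open diamond, lines at the means with SD bars). The 10 synaptonemal complex and cohesin genes lie at -0.45 in Ing2-/- replicate 3 and at -0.12 to 0.02 in the other Ing2-/- arrays, while the Sertoli cell markers lie at 0.36 to 1.18 in the Ing2-/- arrays.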

How the data were processed

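RNA of whole testes from 3 Ing2+/+ and 5 Ing2-/- littermates was measured on Affymetrix Mouse Gene 1.0 ST arrays. The deposited values are log2 levels that the authors made with RMA in Affymetrix Expression Console (version not given in the sources used here), summarised per gene and annotated with NetAffx release 28. RMA corrects background and brings all arrays to 1 distribution, so every level is relative within its array. No column of values was left out (0), and the number of arrays limits the precision.

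Gene names came from the platform annotation, in which 21789 probe sets had 1 symbol, 1621 had several and 12147 had none. Of the first, 21698 had a gene ID found in the gene table of GRCm38.p6 and took the symbol given there, whether or not it differed. A gene with several probe sets is given by the brightest. Syce3, Sycp2l, Fkbp6, Ankrd31, Spdya, Meiosin, Spert and Lhcgr were not analysed here. Promoter windows came from RefSeq.

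Genotypes were fitted without covariates in R 4.3.3 by limma 3.58.1 (eBayes prior of 2.85 degrees of freedom). Adjustment was by Benjamini-Hochberg over all 35557 probe sets with no filter on dim ones, and an adjusted p under 0.05 made a call. The script was tested on simulated data. Differences within an array were compared by exact permutation. Replicate numbers were not taken as pairs.

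The genes described, 6 lists of related genes (other synaptonemal complex genes, HORMA domain partners, telomere attachment genes, other cohesin subunits, cohesin loaders and protectors, and regulators of the meiotic programme) and 7 marker lists (Sertoli cells, Leydig cells, macrophages, spermatogonia, pachytene spermatocytes, and spermatids, round and elongating) were chosen with earlier results of these data known. Genes named from a list are its called genes, at most 3 by size of change, or else the 2 of lowest p, besides the cohesin pairs, 4 markers, and the 5 genes most correlated with the members; other names were added after their values were seen. Alternatives were a block for the replicate number, leaving out each array, a level filter, cyclic loess, array shifts to an equal median of Sertoli or pachytene markers, the random variance model that the study used, robust estimation with an intensity trend, array weights, and averaging the probe sets of a gene.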

Additional observations from a re-analysis of the deposited data

Results flagged for a closer look

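In 6 of 25 sets of 5 Ing2-/- values examined, the lowest array stood off from the others by more than 0.71 of the range of the group (Dixon's critical value for 5 values), and in all 6 that array was Ing2-/- replicate 3. Chance marks about 1 in 20 such sets, and sets measured on the same arrays are not independent. The share of the range taken by the gap was 0.860 for Syce1 (10.23 against 10.76 in the next array), 0.855 for Rec8 (7.85 against 8.48) and 0.721 for Sycp2 (9.77 against 10.14). It was 0.884 for Syce1l (7.74 against 8.31), 0.715 for Majin (7.01 against 7.67) and 0.876 for Rec8 minus Rad21 (-2.53 against -1.67). Groups of 3 were not examined in this way.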

How the results depend on the processing

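No member passed in the main fit, and 0 passed with the replicate block, the level filter, cyclic loess, the pachytene shift, the random variance model, the intensity trend with robust estimation or the mean of all probe sets. The count was 0 to 1 as single arrays were left out, 1 with array weights and 6 with the Sertoli shift. The array whose removal gave 1 call was Ing2-/- replicate 3, and without it 16.5% of all genes passed. With array weights 20.6% of all genes passed, and with the Sertoli shift 68.9%. The Sertoli shift moved the members' median from -0.10 to -0.77. Rec8, Hormad2 and Sycp1 stayed below 0 under every alternative.

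The 5 calls among related genes became 0 to 9 as single arrays were left out, 2 with the pachytene shift, 2 with the intensity trend, 11 with array weights and 31 with the Sertoli shift. Over all probe sets 1713 calls became 49 to 5006, 481 with the pachytene shift, 6565 with array weights and 22918 with the Sertoli shift. The labels do not pair arrays of the same number. The deviations of such arrays from the group means correlated at -0.057, 0.18 and 0.0058. Arrays of unlike number were not compared in this way, so these values do not settle whether arrays are paired. With the replicate number as a block, 0 related genes and 0 probe sets passed, Ing2 was at -2.15 (adjusted p = 0.0612), Hormad1 at -0.029, Rec8 minus Rad21 at -0.74 and Smc1b minus Smc1a at -0.78; the block drops replicates 4 and 5 from the contrast.

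Signs turned as single arrays were left out for Hormad1 (-0.071 to 0.15), Syce2 (-0.029 to 0.16), Stag3 (-0.014 to 0.094), Sycp2 (-0.12 to 0.013), Stag3 minus Stag1 (-0.027 to 0.19) and Stag3 minus Stag2 (-0.12 to 0.11; 0.095 with cyclic loess). The Sertoli shift turned Sycp3 (-0.52), Syce2 (-0.64), Hormad1 (-0.66), Stag3 (-0.65), Trip13 (-0.42), Majin (-0.32), Terb2 (-0.51), Smc1a (-0.13), Rad21 (-0.52) and E2f6 (-0.27), and the pachytene shift Sycp2 (0.13), Syce1 (0.0070) and Smc1b (0.092). Both shifts add a constant per array; which scale is right was not tested.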
